A study of Mus musculus with 2 samples.

Results

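Interferon-stimulated genes are the genes that a cell switches on when it senses interferon. Here 40 of them were followed, listed by name as known targets of interferon. The list was made with earlier results of these data known. Of the 40 genes, 39 were found among the 31053 genes of the files (Mx2 was not in that gene list). They were read in single cells of subcutaneous B16F10 tumours, which are grafts of a mouse melanoma line, in C57BL/6 hosts with or without the transcription factor ATF4. They were compared between the cell classes of the tumour, between states of its macrophages and monocytes, and between the genotypes of the host.

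Type I interferons bind the receptor Ifnar1/Ifnar2 and act through the kinases Jak1 and Tyk2, with Stat2 and Irf9 among the factors downstream, whereas interferon gamma binds Ifngr1/Ifngr2 and acts through Jak1 and Jak2. Promoters of type I targets carry an interferon-stimulated response element (ISRE), and those of interferon gamma targets a gamma-activated site (GAS). The induced proteins sense viral RNA, degrade or trap viral components, conjugate Isg15 to other proteins, or, as with the chemokines Cxcl9 and Cxcl10, attract T cells. In tumours the same genes are known as a mark of interferon exposure in myeloid, stromal and malignant cells.

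The promoters of 3 members on which the results below turn are printed first, because each carries the ISRE letters GAAANNGAAA, searched on both strands. The letters are in capitals, the sequences run 5′ to 3′ in the direction of the gene, and each is the stretch of 240 bases just before the gene's start, taken from RefSeq promoters on GRCm38.p6. Isg15 (ENSMUSG00000035692) lies on the minus strand at chr4:156199424-156200818 and its promoter at chr4:156200819-156201058. Rsad2 (ENSMUSG00000020641) lies on the minus strand at chr12:26442746-26456452 and its promoter at chr12:26456453-26456692. Cxcl10 (ENSMUSG00000034855) lies on the minus strand at chr5:92346638-92348889 and its promoter at chr5:92348890-92349129. The Rsad2 letters are a match on the opposite strand, and the long capital run of Isg15 is 3 overlapping matches.
Isg15: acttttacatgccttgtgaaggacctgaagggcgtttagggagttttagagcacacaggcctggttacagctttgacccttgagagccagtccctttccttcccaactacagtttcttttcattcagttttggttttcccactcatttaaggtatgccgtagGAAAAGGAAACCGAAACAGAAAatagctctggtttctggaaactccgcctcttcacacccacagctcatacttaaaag
Rsad2: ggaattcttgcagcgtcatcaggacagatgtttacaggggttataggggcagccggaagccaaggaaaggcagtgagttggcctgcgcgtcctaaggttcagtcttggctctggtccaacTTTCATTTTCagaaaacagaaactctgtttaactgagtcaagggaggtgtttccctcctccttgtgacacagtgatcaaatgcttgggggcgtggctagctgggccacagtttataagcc
Cxcl10: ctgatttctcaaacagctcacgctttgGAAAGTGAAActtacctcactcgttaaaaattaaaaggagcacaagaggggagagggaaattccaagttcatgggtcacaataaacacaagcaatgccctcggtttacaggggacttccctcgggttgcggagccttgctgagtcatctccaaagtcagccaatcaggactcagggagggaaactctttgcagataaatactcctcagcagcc

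RefSeq promoters, from 250 bases before to 50 bases after a start, were matched for 31 of the 40 members. The ISRE letters were found in 19 of these 31 members (61.3%) and in 1079 of 27025 genes in all (3.99%). The GAS letters TTCNNNGAA, searched on both strands, were found in 7 of the 31 (22.6%) and in 9.55% of all genes. Such a match is a description of letters and not a measured binding site, and no match says only that these letters are not in the window. Windows of 30 bases around further matches are printed for members whose levels are described below, each with 1 match in capitals and in the direction of the gene. The Bst2 and Oas1a windows each hold a further match that overlaps the capitals and is left partly in lower case. These are Ifit1 at chr19:34640775-34640804 (plus strand), Ifit3 at chr19:34583363-34583392 (plus strand), Oas1a at chr5:120907526-120907555 (minus strand), Bst2 at chr8:71537583-71537612 (minus strand), Gbp2 at chr3:142620594-142620623 (plus strand) and Slfn5 at chr11:82951937-82951966 (plus strand), all on GRCm38.p6.
Ifit1: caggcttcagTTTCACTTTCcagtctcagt
Ifit3: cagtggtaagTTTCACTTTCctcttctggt
Oas1a: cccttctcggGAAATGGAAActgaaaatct
Bst2: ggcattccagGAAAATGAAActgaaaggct
Gbp2: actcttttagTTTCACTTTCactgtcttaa
Slfn5: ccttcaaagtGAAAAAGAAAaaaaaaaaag
The Ifit3 window is letter for letter the same in the neighbouring copy Ifit3b at chr19:34607759-34607788. This window lies before the gene's start and does not show how alike the transcripts are. Reads of the pair may have been split between them by the counting, which was not tested, and both are given as uncertain.

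The design held 2 libraries, 1 for each genotype, each a pool of 2 small tumours from mice of 11 weeks, males and females together. Both hosts carried Rosa26::CreERT2, a Cre recombinase expressed in all tissues and active only with tamoxifen, and both received tamoxifen by oral gavage. The WT host was Atf4wt/wt, and in the ATF4 KO host (Atf4D/D) loxP-flanked exons 2 and 3 of Atf4 had been deleted. The tumour cells themselves kept Atf4, so the deletion was in the host cells. With 1 library per genotype a difference between WT and ATF4 KO has no replicate check and is given without a test, with an exact 95% interval that covers counting error only, so that tumour, animal, library and genotype cannot be told apart. The classes and the myeloid states were each seen in both libraries, and there the 2 libraries, which also differ in genotype, served as the replicates of a test.

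The files held 38417113 unique molecular identifiers (UMIs, counted molecules) in 6304 WT barcodes and 38290024 in 5474 ATF4 KO barcodes. Filtering kept 3861 and 3557 cells, and 10 barcodes occurred in both libraries, 1 of them among the kept cells. Cells were put into classes by 87 marker genes, none of them a member, which gave 1749 WT and 1870 KO melanoma cells, 1406 and 1035 macrophage/monocyte cells, 186 and 228 cancer-associated fibroblasts (CAFs), 70 and 26 endothelial cells and 38 and 14 T/NK cells. The markers of each class were highest in their own class in both libraries, with macrophage/monocyte markers at 27820 WT and 27387 KO UMIs per 1000000 UMIs (CPM) in macrophage/monocyte cells against 123 and 97.8 CPM in melanoma cells. Atf4 checked the labels: it read 185 CPM in WT and 39.2 CPM in KO macrophage/monocyte cells, 250.1 and 39.7 CPM in CAFs, and 227 and 204 CPM in melanoma cells. The pools differed in host sex: WT macrophage/monocyte cells held 0 Y-linked UMIs and 900 cells with Xist UMIs, although the labels name both sexes, whereas the KO pool held 145 such cells with a Y-linked UMI and no Xist UMI, 104 with Xist UMIs only, 3 with both and 783 with neither. The values by these cells are given beside the genotype results.

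Macrophage/monocyte cells carried the interferon-stimulated genes at far higher levels than melanoma cells. Levels are given throughout as CPM of the summed UMIs of a class in a library. The 39 members together made up 3637 CPM in WT and 4031 CPM in KO macrophage/monocyte cells, 3514 and 3250 CPM in CAFs, 4656 and 3112 CPM in endothelial cells, and 374 and 466 CPM in melanoma cells. The melanoma sum lay below that of each of these 3 host classes in both libraries. The sum was led by Ifitm3, which blocks virus entry at endosomal membranes, and Bst2, which tethers budding virus to the cell surface, and these 2 genes gave 60.7% and 57.5% of the member UMIs in WT and KO macrophage/monocyte cells and 71.6% and 76.4% in CAFs. The T/NK cells gave only 34 and 19 member UMIs (1050 and 1498 CPM), so that no member could be described there.

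**Figure D1:**
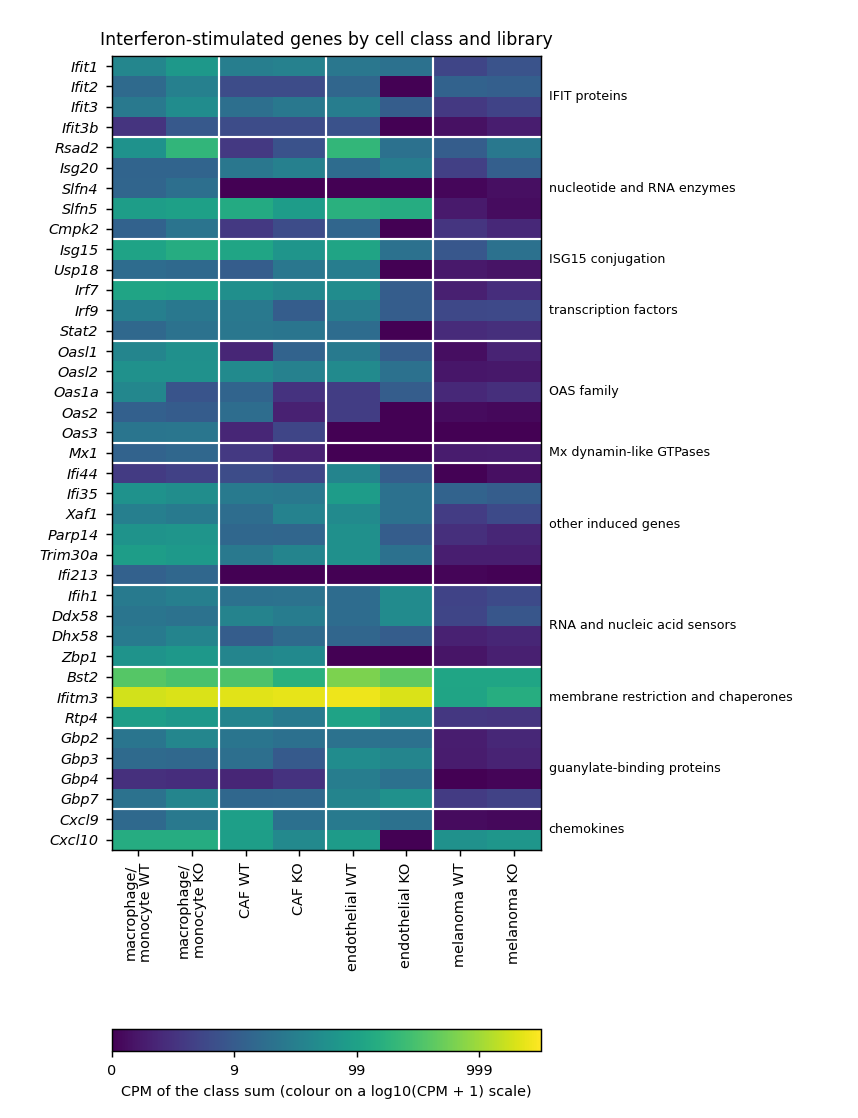
Level of each of the 39 measured members (rows, grouped by role) in 4 cell classes of the WT and ATF4 KO libraries (columns), as colour on a log10(CPM + 1) scale. The macrophage/monocyte, CAF and endothelial columns are brighter than the melanoma columns for nearly every member, and Ifitm3 and Bst2 are the brightest rows throughout.

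Of the 39 members, 34 had enough UMIs to be tested between classes over 9530 genes, and 5 (Ifit3b, Oas2, Mx1, Ifi44 and Ifi213) were not tested. All 34 were called higher in macrophage/monocyte than in melanoma cells and 0 lower (edgeR quasi-likelihood test, library as a block, adjusted p under 0.05), against 31.3% of all genes called higher and 31.9% called lower. At an unadjusted p under 0.05, 0 were lower, and DESeq2 called the same 34 higher and 0 lower. Members that pass such a filter may do so through the class in which they are high, so the level of every member is also given without it: all 39 read higher in macrophage/monocyte cells in both libraries, with a median log2 difference of 4.04 in WT and 3.64 in KO, where the median over all genes was -0.32 and -0.36. Members with fewer than 3 UMIs in the melanoma sum entered at a floor of 3 UMIs.

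All 3 transcription factors of the response were higher in the myeloid class. Irf7, which amplifies type I interferon production, read 110.2 and 102 CPM (WT and KO) in macrophage/monocyte cells and 1.02 and 1.85 CPM in melanoma cells (log2 difference 6.51, edgeR adjusted p = 8.77e-40). Irf9, the DNA-binding subunit of the type I complex, read 31.5 and 24.3 CPM against 4.83 and 4.89 CPM, and its partner Stat2 read 14.1 and 19.6 CPM against 1.73 and 1.95 CPM. Both libraries of the myeloid class lay above both of the tumour cells for each of the 3 factors.

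Among the nucleotide and RNA enzymes, Slfn5, a Schlafen family member, read 88.1 and 95.2 CPM in macrophage/monocyte cells against 0.813 and 0.299 CPM in melanoma cells (log2 difference 7.64, edgeR adjusted p = 3.16e-42). Rsad2, the radical-SAM enzyme viperin, which makes a chain-terminating nucleotide, read 60.7 and 199 CPM against 9.66 and 24.4 CPM (log2 difference 3.20). Isg20, an exonuclease, had the smallest fitted difference of the 34, at 12.4 and 12.6 CPM against 3.56 and 10.6 CPM (log2 difference 1.32, edgeR adjusted p = 5.50e-04). The role thus ran from a member almost unread in the tumour cells to one close to its myeloid level in the KO tumour cells. Cmpk2, a nucleotide kinase encoded beside Rsad2, and Slfn4 were higher in the myeloid class too, at 11.7 and 21.0 CPM for Cmpk2 against 2.44 and 1.497 CPM.

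The OAS family makes oligoadenylates that activate RNase L, and 4 of its 5 members were tested and called higher. Oasl2 read 58.0 and 57.9 CPM in macrophage/monocyte cells and 0.610 and 0.699 CPM in melanoma cells. Oas3 had 66 and 49 UMIs in macrophage/monocyte cells and 0 UMIs in either melanoma sum. Oas1a read 40.2 and 6.999 CPM against 1.52 and 1.95 CPM, and its KO level stood well below its WT level. These genes are close paralogues, so part of their reads may have been lost or split.

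The sensors and effectors followed. Zbp1, which senses Z-form nucleic acids, read 62.3 and 71.4 CPM in macrophage/monocyte cells against 0.559 and 1.05 CPM in melanoma cells. The RNA helicases Ifih1 and Ddx58, which encode the sensors MDA5 and RIG-I, were set less apart, Ifih1 at 25.5 and 31.3 CPM against 4.07 and 5.09 CPM, and Ddx58 at 22.1 and 20.1 CPM against 4.37 and 7.58 CPM. Isg15, the ubiquitin-like modifier, read 105 and 148 CPM against 7.93 and 19.2 CPM (log2 difference 3.58). The sensors therefore differed between themselves, with Zbp1 almost unread in the tumour cells and both helicases readable there.

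Ifitm3 read 1826 and 2009 CPM in macrophage/monocyte cells and 111 and 151 CPM in melanoma cells (log2 difference 4.21, edgeR adjusted p = 7.70e-30). Bst2 read 380.3 and 307 CPM against 114 and 112 CPM (log2 difference 1.91). Cxcl10 read 147 and 146 CPM against 57.2 and 67.0 CPM (log2 difference 1.56, edgeR adjusted p = 5.18e-11). These were the members with most UMIs in the tumour cells, where Bst2 alone gave 30.4% and 24.1% and Cxcl10 15.3% and 14.4% of the member UMIs. The other chemokine, Cxcl9, had 5 and 4 UMIs in all melanoma cells.

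CAFs also carried most members above the melanoma level. Of the 34 tested, 29 were called higher in CAFs (background 27.6% of genes) and 1, Rsad2, was called lower (background 25.1%). Slfn5 read 138 and 86.1 CPM in WT and KO CAFs (log2 difference to melanoma 7.78, edgeR adjusted p = 1.73e-40), Isg15 112 and 65.1 CPM, and Ifitm3 2181 and 2318 CPM. Rsad2 had 2 UMIs in WT and 6 UMIs in KO CAFs (2.76 and 6.62 CPM), below the 9.66 and 24.4 CPM of the melanoma cells (log2 difference -1.59, edgeR adjusted p = 0.0193), and it was not called by DESeq2. Rsad2 was thus low in CAFs, whereas Slfn5, Isg15 and Ifitm3 were not. Slfn4 and Ifi213 had 0 UMIs in both CAF sums.

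Set against CAFs, macrophage/monocyte cells were called higher for 21 of the 34 tested members (background 22.3%) and lower for 1 (background 21.4%). The largest fitted difference of a member with UMIs in each CAF sum was that of Rsad2 (log2 difference 4.79, edgeR adjusted p = 1.51e-15), followed by Oas3 at 3.01, Oasl1 at 2.88 and Parp14, a mono-ADP-ribosyl transferase, at 2.35. The member called lower was Cxcl9 (log2 difference -1.22, edgeR adjusted p = 0.00512), and its libraries went opposite ways, with 14.7 CPM in myeloid cells against 92.6 CPM in CAFs in WT and 25.2 against 18.8 CPM in KO. Another 12 members were not called, among them Ifitm3, Slfn5, Ddx58, Xaf1 and Stat2. DESeq2 called 11 members higher, all among the 21, and 0 lower.

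Endothelial cells, with 70 WT and 26 KO cells, were called higher than melanoma cells for 27 tested members (background 18.4%) and lower for 0 (background 16.3%), with 28 members higher and 0 lower at an unadjusted p under 0.05 and 27 and 0 called by DESeq2. Gbp4 and Gbp3, guanylate-binding GTPases that act on membranes of intracellular pathogens, were among the genes called higher, Gbp4 at 29.8 and 19.3 CPM (WT and KO) against 0 and 2 UMIs in melanoma cells (log2 difference 8.41). Slfn5 read 165 and 145 CPM (log2 difference 8.06). Zbp1, Oas3, Slfn4, Mx1 and Ifi213 had 0 UMIs in both endothelial sums, which allows a level of up to 12.2 CPM in WT and 35.5 CPM in KO (exact 95% Poisson interval). T/NK cells were called higher than melanoma cells for 6 members (background 3.69%) and lower for 0 (background 6.41%), each of the 6 on 1 to 3 UMIs, with 10 higher and 1 lower at an unadjusted p under 0.05 and 13 called higher and 0 lower by DESeq2. A fit of T/NK and melanoma cells alone called 0 of 25 members tested.

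Part of a member's UMIs in a class can be RNA from other cells in the suspension. From 11 myeloid genes that no gate used, myeloid RNA was estimated at 1.41% of the WT and 0.991% of the KO melanoma UMIs, at 3.73% and 4.87% in CAFs and at 3.59% and 3.94% in endothelial cells. Melanoma RNA, estimated from a set of 9 melanoma genes, was 14.0% and 14.7% of the macrophage/monocyte UMIs. The 9 class markers of melanoma gave a lower share there. They read 982 CPM (WT) and 781 CPM (KO) in macrophage/monocyte cells against 13791 and 10722 CPM in melanoma cells. Member UMIs were set against what the myeloid share would bring. They exceeded it, in both libraries and beyond counting error, for 26 of 39 members in melanoma cells, 29 in CAFs and 16 in endothelial cells. The same was not counted over all genes, so these counts do not set the members apart from other genes. Members in macrophage/monocyte cells were not set against the melanoma share. Bst2 in melanoma cells was 21.3 and 36.8 times the expected count, Cxcl10 27.6 and 46.3 times, Isg20 20.4 and 84.7 times and Rsad2 11.3 and 12.3 times. Slfn5, Zbp1, Oasl2, Trim30a and Cxcl9 did not exceed it in melanoma cells, Slfn5 standing at 0.657 and 0.317 of the expected count, so that their few tumour-cell UMIs were at the level of carried-over RNA. In CAFs Slfn5 stood at 42.1 and 18.6 times and Cxcl9 at 168 and 15.3 times, but Rsad2 did not exceed the expected count.

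**Figure D2:**
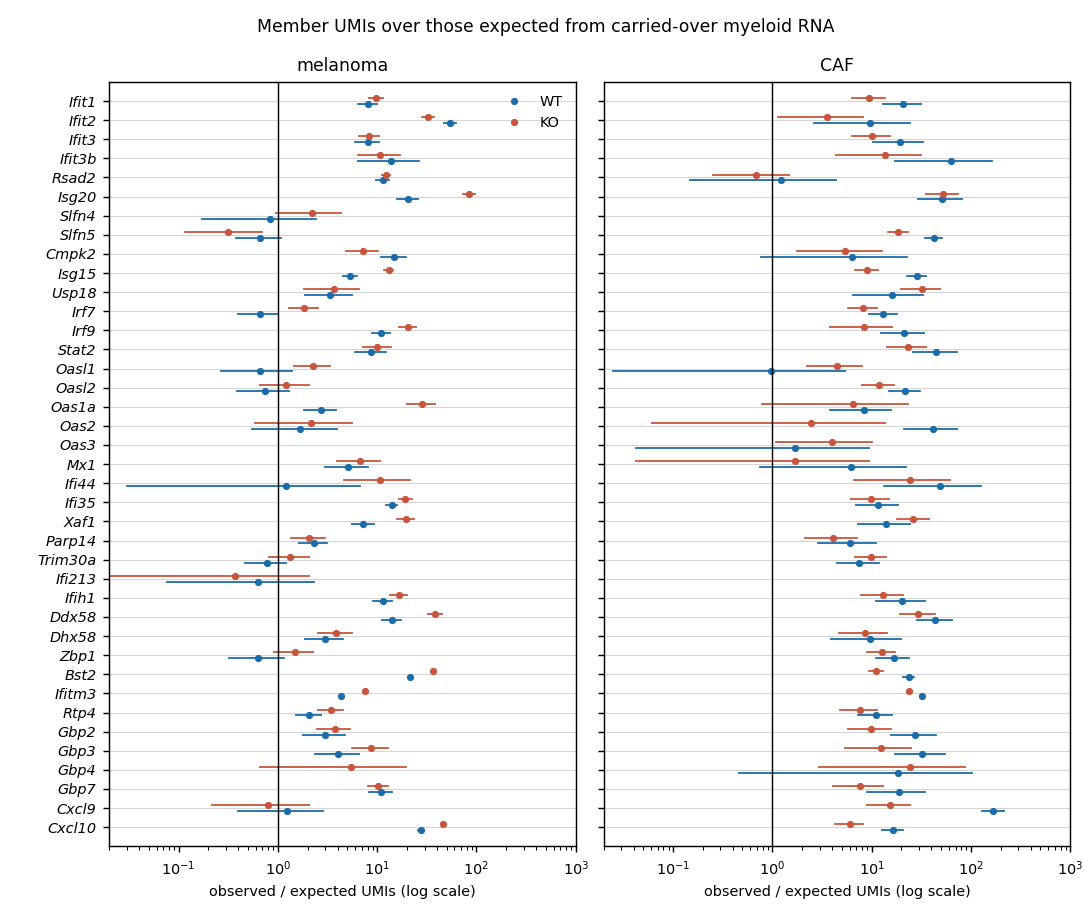
Observed member UMIs in melanoma cells (left) and CAFs (right) divided by those expected from carried-over myeloid RNA, on a log axis, for WT (blue) and ATF4 KO (red), with exact 95% Poisson intervals. Points right of the line at 1 exceed the expectation, as for 26 members in melanoma cells and 29 in CAFs in both libraries. The share over all genes was not counted.

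Other genes of the pathway, from a list of 50 that held 18 ligands and the receptors, kinases, regulators and adaptors, were read in the same fits, where 27 of them were tested. In macrophage/monocyte over melanoma cells 24 were called higher, 0 lower (0 also at an unadjusted p under 0.05) and 3 were not called, which were Irf3, Tlr3 and Ptpn2. Irf8 and Irf5, factors of the myeloid lineage and its interferon response, were apart by 6.76 and 7.48 on the log2 scale, and Ifnar1 by 1.99. In macrophage/monocyte over CAF cells 14 were called higher, 1 lower and 12 were not called. Of the ligands, the 15 type I genes measured had 4 UMIs in tumours of WT hosts and 5 in those of KO hosts over all kept cells, all but 1 of them Ifnb1, and Ifng had 4 and 0, so the source of interferon could not be read at this depth.

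Macrophage/monocyte cells were divided into 6 states by 41 further markers, none a member: resident (125 WT and 233 KO cells), C1q-high (264 and 163), monocyte (217 and 156), MHC class II (312 and 149), Arg1 hypoxic (188 and 166) and Il1b inflammatory (172 and 115). The states are ranges of marker scores, and 334 WT and 205 KO cells lay near a limit between them. Some markers, such as the MHC class II genes, may themselves respond to interferon. This was not tested, so the states are not shown to be independent of the members. The sum of members was highest in the monocyte state, with 6792 CPM (WT) and 5995 CPM (KO), and low in the C1q-high state, with 2708 and 2469 CPM. Ifitm3 alone gave 4079 and 3880 CPM of the monocyte sum. In the MHC class II state it gave 2230 and 2711 CPM of sums of 4143 and 5724 CPM. In KO the top place of the monocyte state thus rested on Ifitm3. Each state was compared with the mean of the others by the same test over 5647 genes, in which 30 of 39 members were tested. This gave 44 calls in all, whereas DESeq2 made 16.

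The monocyte state was called higher for 11 members (background 8.55%) and lower for 1 (background 6.61%). Ifitm3 read 4079 CPM in WT and 3880 CPM in KO monocyte-state cells against a mean of 1666 and 1896 CPM in the other states (log2 difference 1.23, edgeR adjusted p = 2.95e-09). Oas3 read 77.0 and 56.6 CPM (log2 difference 2.09, edgeR adjusted p = 2.82e-04), Slfn5 239 and 147 CPM, and Zbp1 118 and 158 CPM. These 4 members were called by DESeq2 too. The other 7 called higher were Slfn4, Isg20, Gbp2, Ifi35, Isg15, Irf7 and Parp14, and Oasl1 was called lower at 16.2 and 11.3 CPM.

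The MHC class II state was called higher for 6 members (background 6%) and lower for 0 (background 2.83%), with 1 lower at an unadjusted p under 0.05 and 0 by DESeq2. Cxcl10 read 170.3 CPM in WT and 382 CPM in KO (log2 difference 0.97) and was the only one of the 6 that DESeq2 called. Ifit1 read 48.9 and 189 CPM, Gbp2 32.6 and 80.3 CPM and Cxcl9 14.5 and 170.0 CPM, with the KO library well above the WT library for each. In the Il1b inflammatory state Cxcl10 was the 1 member called higher (background 2.6%) and 0 were lower (background 0.124%, 2 at an unadjusted p under 0.05 and 0 by DESeq2), at 387 and 338 CPM (log2 difference 1.64, edgeR adjusted p = 2.48e-06). Cxcl10 was thus called higher in both states, and in the Il1b inflammatory state both libraries lay at a like level. For the Il1b inflammatory state, 1 call higher among 30 members tested lay near the share of all genes. In WT the MHC class II level of Cxcl10 lay below that of the monocyte state (186 CPM). It lay above that of the C1q-high state (149 CPM). WT Cxcl9 likewise read higher in the monocyte state (77.0 CPM) than in the MHC class II state.

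Of the 30 members tested, the Arg1 hypoxic state was called higher for 3 (background 7.53%) and lower for 5 (background 3.28%). The count called higher lay near the share of all genes. Rsad2 read 129.7 CPM in WT and 429.9 CPM in KO (log2 difference 1.49, edgeR adjusted p = 6.19e-07), and Ifit1 read 83.3 and 128 CPM. Oasl1, also called higher in the resident state below, read 65.8 CPM in WT and 45.6 CPM in KO. Ifitm3, at 1038 and 1600 CPM, Gbp2, Zbp1, Ifi35 and Cxcl10, at 60.03 and 62.6 CPM, were lower. DESeq2 called Rsad2 and Ifit1 higher and Ifitm3 and Cxcl10 lower.

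Of the 30 members tested, the resident state was called higher for 4 (background 12.3%) and lower for 5 (background 10.9%). Neither count lay far from the share of all genes. Oasl1, an OAS-like protein that limits Irf7 translation, read 76.1 and 90.5 CPM (log2 difference 1.52, edgeR adjusted p = 1.88e-05), Gbp7 51.6 and 65.6 CPM, the helicase Dhx58 46.7 and 66.9 CPM, and Bst2 528 and 372 CPM. Cxcl10, at 68.8 and 52.4 CPM (log2 difference -1.63, edgeR adjusted p = 1.42e-05), Isg15, Rsad2, Ifit1 and Slfn4 were lower. Of these 9, DESeq2 called Oasl1, Gbp7, Dhx58, Cxcl10 and Isg15. The C1q-high state was called higher for 0 members (background 5.72%, 0 at an unadjusted p under 0.05 and 0 by DESeq2) and lower for 8 (background 5.08%), led by Ifitm3 at 1075 and 797 CPM (log2 difference -1.29, edgeR adjusted p = 5.22e-08), which was the only one of the 8 called by DESeq2.

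**Figure D3:**
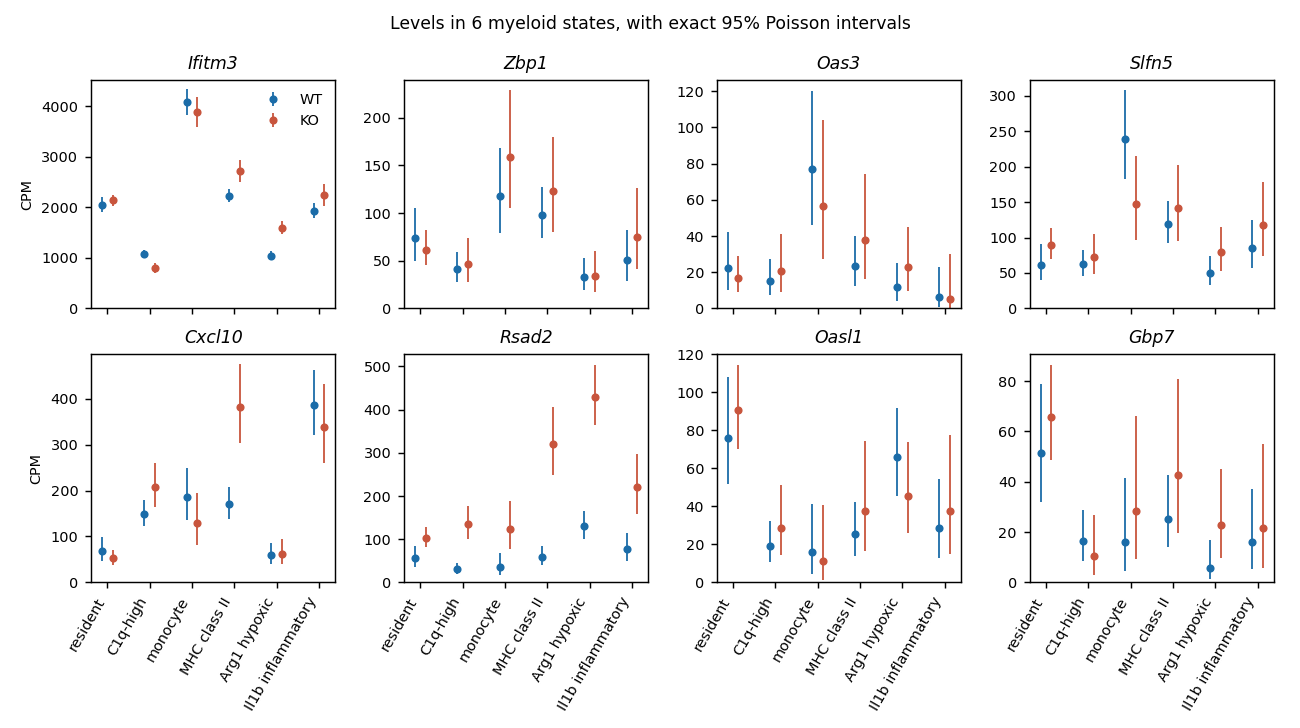
Level in CPM (vertical axes, from 0) of 8 members in the 6 myeloid states, for WT (blue) and ATF4 KO (red), with exact 95% Poisson intervals and 1 library per point. Ifitm3, Oas3 and Slfn5 are highest in the monocyte state, Oasl1 and Gbp7 in the resident state, and Rsad2 of the KO library in the Arg1 hypoxic state.

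The genotypes were compared within each class. In macrophage/monocyte cells Rsad2, Cmpk2 and the 4 IFIT genes read higher in ATF4 KO, Oas1a and Bst2 read lower, and most other members were within counting error. Rsad2 read 60.7 CPM in WT (181 UMIs) and 199 CPM in KO (427 UMIs), a log2 ratio of 1.72 (95% interval 1.46 to 1.97), and was higher in KO in 6 of 6 states with log2 ratios of 0.86 to 2.43. The IFIT proteins, which bind viral RNA, read 39.2 and 71.9 CPM for Ifit1, with a log2 ratio of 0.87 (0.52 to 1.23), and 24.8 and 49.0 CPM for Ifit3, with 0.98 (0.54 to 1.43). Summed over the role, the IFIT genes read 81.8 CPM (WT) and 161 CPM (KO), a log2 ratio of 0.98 (0.74 to 1.22).

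Isg15, at 105 CPM for WT and 148 CPM for KO, had a log2 ratio of 0.49 (0.26 to 0.72). Gbp2 read 21.8 and 39.2 CPM (0.85, interval 0.36 to 1.34) and Gbp7 19.8 and 38.7 CPM (0.97, interval 0.47 to 1.48). For the transcription factors the interval included 0. It was -0.37 to 0.13 around -0.12 for Irf7 (110.2 and 102 CPM) and -0.31 to 0.11 around -0.10 for the 3 factors together. Cxcl10 was at 147 and 146 CPM, with an interval of -0.23 to 0.20.

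In the other direction, Oas1a read 40.2 CPM in WT (120 UMIs) and 6.999 CPM in KO (15 UMIs), a log2 ratio of -2.52 (-3.40 to -1.74), and it was lower in KO in 6 of 6 states. Bst2 read 380.3 and 307 CPM (-0.31, interval -0.45 to -0.17), and Rtp4, a Golgi chaperone of receptors, 91.1 and 71.9 CPM (-0.34, interval -0.64 to -0.05). Among the 37 members with at least 20 UMIs in the pair, the interval lay above 0 for 12 (all genes 10.3%), below 0 for 3 (all genes 11.2%) and included 0 for 22. Past a 2-fold change were 3 members higher in KO (all genes 2.69%) and 1 lower (all genes 2.78%), and the median log2 ratio was 0.14 where that of all 9394 genes was -0.01. The sum of the members had a log2 ratio of 0.15 (0.11 to 0.19).

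The Rsad2 UMIs came from few cells. The 10 cells with most UMIs held 45.9% of them in WT and 45.0% in KO, and 90 WT and 109 KO cells had any. With each cell thinned to 1000 UMIs (1211 WT and 860 KO cells, with 195 and 175 shallower cells left out), 3.55% of WT and 6.74% of KO cells had an Rsad2 UMI (6.40% and 10.5% unthinned), and 4.38% and 0.698% had an Oas1a UMI. Isg15 was in 10.8% of thinned cells in both libraries, while its level over all cells was higher in KO. Cxcl9 came from 6 cells in each library. The intervals treat UMIs as independent, which such clustering goes against.

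Some of the genotype differences in macrophage/monocyte cells changed sign when cells were grouped by sex-linked UMIs, and others kept it. Rsad2 read 254 CPM in KO cells with neither kind of UMI, 95.1 CPM in those with a Y-linked UMI and 44.5 CPM in those with Xist UMIs, against 65.7 CPM in WT cells with Xist UMIs and 47.1 CPM in WT cells with neither. The median depth was 1551 UMIs for KO cells with neither, 2366 with a Y-linked UMI and 2380 with Xist UMIs. Between Xist-positive cells alone (900 WT and 104 KO), the log2 ratio was -0.56 (-1.55 to 0.29) for Rsad2. It was -2.59 (-5.65 to -0.69) for Ifit1 on 2 KO UMIs, -0.04 for Isg15 and -0.24 (-0.34 to -0.13) for the member sum. These 4 values thus changed sign, with Isg15 near no difference. Oas1a kept its direction at -3.45 on 1 KO UMI (-8.77 to -0.93), Bst2 at -0.61 (-0.99 to -0.26) and Rtp4 at -1.07 (-2.09 to -0.19), as did Gbp7 at 0.54, Oasl1 at 0.25, Cmpk2 at 0.16 and Ifitm3 at 0.08, each of these last 4 with an interval that included 0. The part of host sex, or of the single tumours of a pool, in the pooled ratios was not tested.

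**Figure D4:**
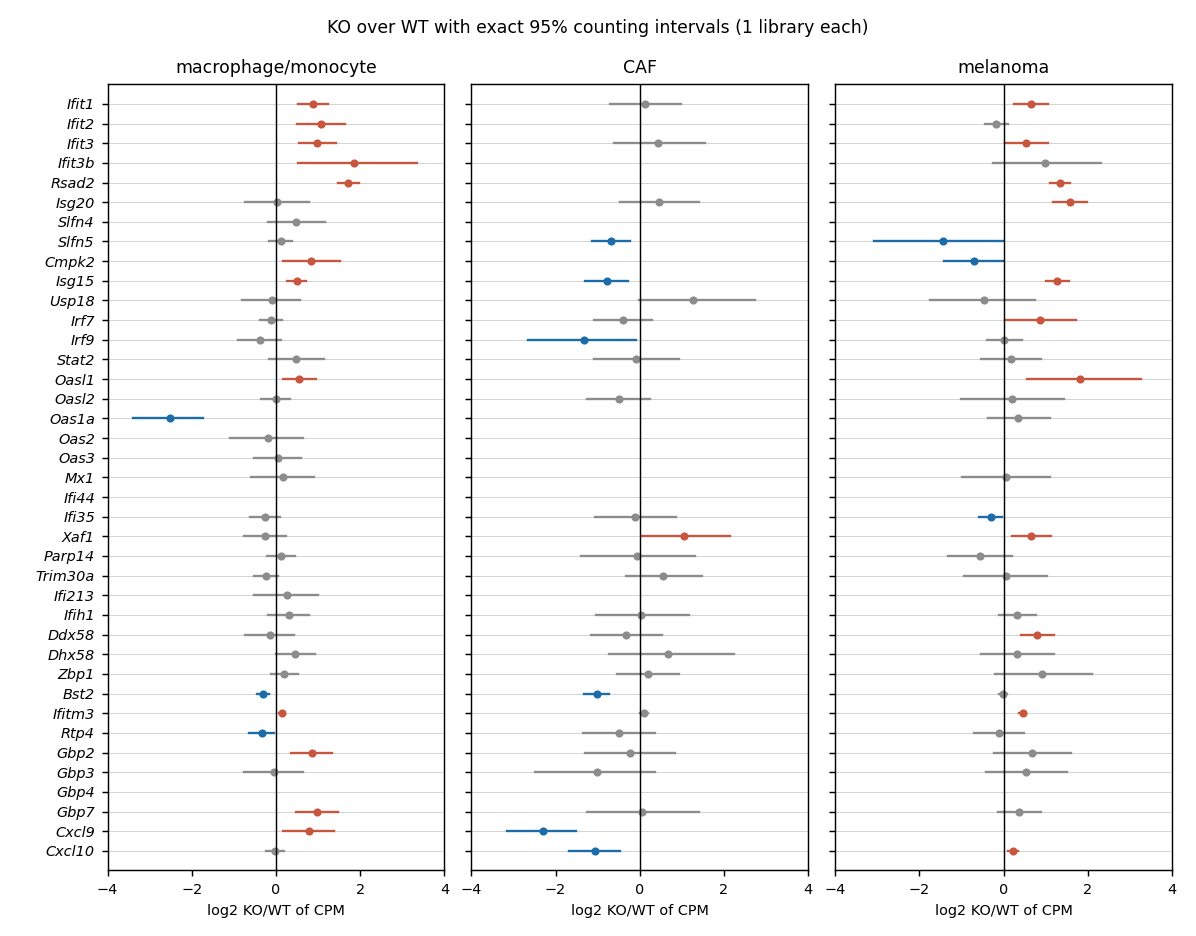
Log2 ratio of KO over WT level for each member with at least 20 UMIs, in macrophage/monocyte cells, CAFs and melanoma cells, with exact 95% counting intervals from 1 library per genotype. Red marks intervals above 0 and blue those below 0. Rsad2 and the IFIT genes lie right of 0 and Oas1a left in macrophage/monocyte cells, Cxcl9, Cxcl10, Bst2 and Isg15 lie left in CAFs, and Isg20, Rsad2 and Isg15 lie right in melanoma cells.

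In CAFs the chemokines, Bst2 and Isg15 read lower in ATF4 KO. Cxcl9 read 92.6 CPM in WT (67 UMIs) and 18.8 CPM in KO (17 UMIs), a log2 ratio of -2.30 (-3.17 to -1.52), and Cxcl10 read 89.8 and 43.0 CPM (-1.06, interval -1.67 to -0.47). In WT the 10 CAFs with most Cxcl9 held 82.1% of its UMIs. For Cxcl10 the 10 highest CAFs held 63.1% in WT and 94.9% in KO, where 12 cells had any. Bst2 read 336 and 165 CPM (-1.02, interval -1.32 to -0.72) and Isg15 112 and 65.1 CPM (-0.78, interval -1.29 to -0.28), and Slfn5 and Irf9 also had intervals below 0, which makes 6 members (all genes 12%). Only Xaf1, a partner of the apoptosis inhibitor XIAP, had an interval above 0 (all genes 9.72%) among the 26 members with enough UMIs, at 16.6 and 34.2 CPM. Past 2-fold were 2 members higher (all genes 5.08%) and 5 lower (all genes 6.03%). The median over members was -0.10 where all 7219 genes had -0.04, and Ifitm3 read 2181 and 2318 CPM. WT CAFs held 0 cells with a Y-linked UMI and 151 with Xist UMIs, and KO CAFs held 49 and 60. Between Xist-positive CAFs the median over 14 members was -0.63. The log2 ratio of the member sum there was -0.14 (-0.27 to -0.0094), against -0.11 in all CAFs. The part of host sex was not tested.

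In melanoma cells, which kept Atf4 in both hosts, several members read higher in tumours of ATF4 KO hosts. Isg20 read 3.56 and 10.6 CPM, and the log2 ratio was 1.57 (1.18 to 1.98). Rsad2 read 9.66 and 24.4 CPM (1.33, interval 1.09 to 1.58), and Isg15 7.93 and 19.2 CPM (1.28, interval 1.01 to 1.55). Of 32 members with enough UMIs, the interval lay above 0 for 11 (all genes 24.2%) and below 0 for 3, namely Ifi35, Slfn5 and Cmpk2 (all genes 20.8%), and past 2-fold were 4 higher (all genes 3.2%) and 1 lower (all genes 1.07%). Slfn5 had only 16 WT and 6 KO UMIs and, as given above, did not exceed the count expected from carried-over myeloid RNA. Bst2, the leading member in melanoma cells, read 114 and 112 CPM. A single KO cell held 56 of the 488 Rsad2 UMIs, and the 10 highest cells 43.4%, against 19.5% in WT.

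In endothelial cells, where KO rests on 26 cells, there were 63 WT and 2 KO UMIs of Rsad2 (208 and 19.3 CPM) and 33 and 2 of Isg15. Cxcl10 had 25 UMIs and 0, at least 2.86-fold lower in KO against a floor of 3 UMIs. Ifitm3 read 2543 and 2004 CPM (-0.34, interval -0.57 to -0.12), and Slfn5 165 and 145 CPM with an interval that included 0. The log2 ratio of the member sum was -0.58 (-0.76 to -0.41). Rsad2 thus read higher in KO macrophage/monocyte and melanoma cells and lower in KO endothelial cells, and the difference between classes was not tested.

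A small set of macrophage/monocyte cells held the genes together. Cells with at least 3 UMIs of Ifit1, Ifit2, Ifit3, Isg15, Rsad2 and Cmpk2 after thinning, called interferon-gated here, were 28 of 1211 in WT (2.31%, exact 95% interval 1.54% to 3.32%) and 45 of 860 in KO (5.23%, 3.84% to 6.94%). The log2 ratio of the shares was 1.18 (0.47 to 1.91). The gate genes themselves read higher in KO over all macrophage/monocyte cells, as given above, so this ratio is not separate from those values. At 2000 UMIs per cell, with 596 and 432 cells, it was 0.76 with an interval that included 0 (-0.11 to 1.64), and in Xist-positive cells the shares were 2.55% (21 of 825) and 3.06% (3 of 98). The gate lay in a continuous range, with 7 WT and 9 KO cells just inside it at 3 UMIs and 24 and 23 just outside at 2, and 84.3% and 83.0% of cells had no gate UMI. In the other classes 3 of 1696 WT and 11 of 1808 KO melanoma cells, 2 of 180 and 1 of 214 CAFs, and 3 of 67 WT endothelial cells (4.48%, exact 95% interval 0.933% to 12.5%) passed it. Among KO endothelial cells it was 0 of 23, which allows a share of up to 14.8%.

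Each state held interferon-gated cells. The share was 3.37% in WT and 8.84% in KO for the Arg1 hypoxic state and 3.32% and 8.20% for the MHC class II state. It was 0.714% and 4.30% for the monocyte state, where the summed member level, led by Ifitm3, was highest, and 1.56% and 3.27% for the C1q-high state. The KO share was above the WT share in 6 of 6 states, on 1 to 13 gated cells each. These states came from the same 2 libraries and were read by the same gate genes.

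Of the 33 measured members that the gate did not use, 31 had enough UMIs and 30 read higher in gated than in other cells in both libraries. For 25 the interval lay above 0 in both, where 1.16% of 9242 other genes did so. Usp18, the protease that removes Isg15 and damps receptor signalling, read 181 CPM in gated against 12.7 CPM in other WT cells and 184 against 7.33 CPM in KO. Irf7 read 741 against 91.3 CPM in WT and 425 against 85.9 CPM in KO, and Gbp2 279.9 against 16.3 and 379 against 23.0 CPM. Cxcl10 read 1119 against 128 CPM in WT and 1459 against 86.4 CPM in KO. The abundant membrane genes were among the least raised, Ifitm3 at 3293 against 1696 CPM in WT and 3102 against 1883 CPM in KO, and Bst2 at 741 against 368 and 666 against 299.5 CPM. Cxcl9 differed between libraries, with 0 UMIs in WT gated cells and 402 CPM in KO gated cells.

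Genes outside the list with the most similar pattern were ranked over 5151 genes with at least 100 UMIs by their lower gated-over-other log2 ratio of the 2 libraries. They were Ifi209, Phf11d, AW112010, Phf11b, Ly6a, Daxx, Ms4a4c, Irgm1, Samd9l and Znfx1. Ifi209 led at 3.28 in WT and 3.25 in KO, with 346 and 264 CPM in gated cells and 35.5 and 27.7 CPM in the others. The tenth, Znfx1, stood at 2.28 and 2.53.

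**Figure D5:**
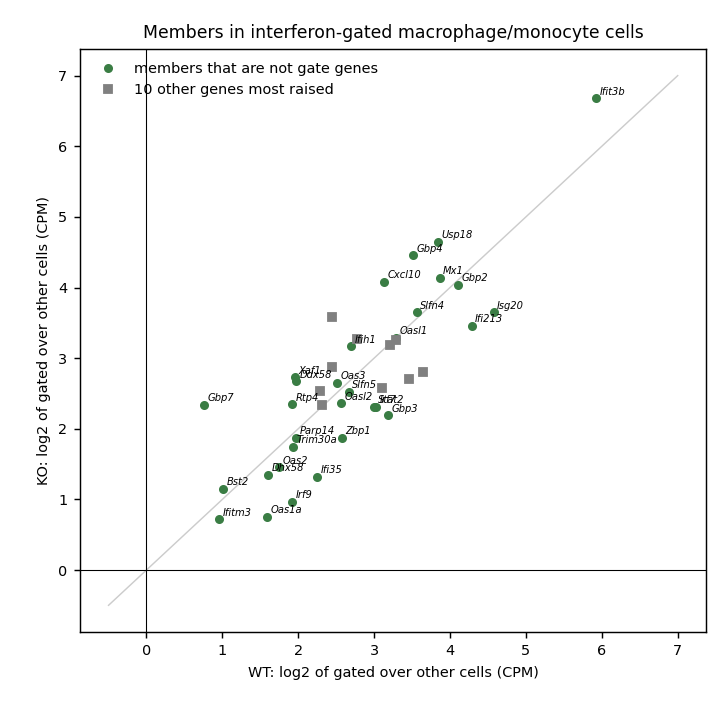
Log2 ratio of the level in interferon-gated over other macrophage/monocyte cells in WT (horizontal) and ATF4 KO (vertical), for members that the gate did not use (green, named) and for the 10 other genes most raised (grey squares). Members plotted with a value in both libraries lie right of and above 0, with Ifitm3 and Bst2 near 1 and Usp18 and Gbp2 near 4.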

How the data were processed

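Per the labels, tumours of 2 genotypes were dissociated and sequenced as 10x 3′ libraries, and the authors deposited raw UMI counts per gene and barcode (Cell Ranger 3.1.0 and Seurat 3.2.1 per the submitters' processing notes, GRCm38). From these counts, cells were kept within the study's stated limits (200 to 5000 genes, mitochondrial UMIs up to 7.5%). Classes needed at least 2 markers above a cut of 40 (melanoma, macrophage/monocyte, CAF), 15 (endothelial) or 10 (T/NK) marker UMIs per 10000, and cells passing 2 classes were set aside as mixed. Scrublet marked 96 WT and 47 KO barcodes as doublets, which were removed only in an alternative. The members, the markers and the pathway list were chosen with earlier results of these data known. UMIs were summed per class or state and library (10 and 12 sums), and classes were compared with edgeR 4.0 quasi-likelihood tests in R 4.3 (TMM, filterByExpr, library as a block, 2-sided, Benjamini-Hochberg adjustment over all genes tested, 0.05). Each state was set against the mean of the other 5 states. DESeq2 1.42 was an alternative. KO over WT ratios have exact binomial and levels exact Poisson 95% intervals, for counting error only; in pools of 2 tumours these hold no animal-to-animal spread. In simulated counts for macrophage/monocyte over melanoma (8763 genes, 171 changed) 83.0% of changed genes were recovered and 0.699% of calls were false. Members with at least 50 UMIs in a comparison, at most 25, could be given by value, by role. Other alternatives changed the cell filter, doublets, gate, thinning, normalization and minimum UMIs.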

Additional observations from a re-analysis of the deposited data

Results flagged for a closer look

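For 6 members the ratio of KO over WT pointed opposite ways in a pair of cell classes with both counting intervals off 0, among macrophage/monocyte, CAF, melanoma and endothelial cells and members with at least 50 UMIs in each class of the pair. The difference between the classes was not tested, since each genotype has 1 library. Isg15 had a log2 ratio of 0.49 in macrophage/monocyte cells and -0.78 in CAFs, and against the CAF value of -0.78 it stood at 1.28 in melanoma cells. Cmpk2 stood at 0.84 in macrophage/monocyte cells and -0.70 in melanoma cells. Cxcl9 stood at 0.77 in macrophage/monocyte cells, on UMIs from 6 cells in each library, and at -2.30 in CAFs. Cxcl10 stood at -1.06 in CAFs and 0.23 in melanoma cells. In endothelial cells, with 26 KO cells, Rsad2 stood at -3.43 on 2 KO UMIs against 1.72 in macrophage/monocyte and 1.33 in melanoma cells, and Ifitm3 at -0.34 against 0.14 and 0.45.

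Among all genes with as many UMIs, 1.85% pointed opposite ways in macrophage/monocyte cells and CAFs (2 of 13 members), 2.72% in macrophage/monocyte and melanoma cells (1 of 22) and 4.74% in CAFs and melanoma cells (2 of 8). With endothelial cells it was 1.91% for macrophage/monocyte cells (2 of 4 members), 2.9% for CAFs (0 of 3) and 3.88% for melanoma cells (2 of 3).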

How the results depend on the processing

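Of 120 alternatives to the main results, 103 left a count (for classes and states, of calls higher) within 1.5 times or a ratio within its main interval (a median within 0.1, or within 1 SD of both libraries where 1 was left out), and 271 of 311 did so for single members and states. A ratio so counted could still lose its side of 0, as did the CAF sum with DESeq2 size factors (-0.12 to 0.03) and without mitochondrial and ribosomal protein genes (-0.15 to 0.0089), and the gated share at 2000 UMIs (-0.11 to 1.64). With DESeq2 the members called fell to 11 for macrophage/monocyte over CAF and to 16 over the myeloid states, and rose to 13 for T/NK over melanoma, which fell to 0 when only those 2 classes were fitted. The monocyte state kept 4 of its 11 calls higher under DESeq2, 4 of them (5 calls) without Ly6c2 and Ly6c1 as markers, where Rsad2 was also called lower, and 5 with cells thinned before the state was set. The C1q-high state kept 1 of its 8 calls lower under DESeq2. Leaving out 1 library leaves no test, and the median log2 over members then ranged from 3.64 to 4.04 for macrophage/monocyte over melanoma, 3.05 to 3.60 for CAF over melanoma and 0.52 to 1.06 for macrophage/monocyte over CAF. The state medians ranged from -0.14 to 0.0018 (resident), -0.20 to 0.28 (monocyte) and -0.0495 to 0.52 (MHC class II), so these had no stable sign. In cells with Xist UMIs only, the KO over WT values were -0.28 (median) and -0.24 (sum) in macrophage/monocyte cells, -0.63 (median) in CAFs and 0.27 for the gated share. In an alternative added after seeing the data, members there read -2.59 (Ifit1), -1.07 (Ifit2), -0.22 (Ifit3), -0.56 (Rsad2), -0.0435 (Isg15), -0.0741 (Gbp2) and -2.38 (Cxcl9), while Gbp7 (0.54), Oasl1 (0.25), Cmpk2 (0.16), Ifitm3 (0.08), Oas1a (-3.45), Bst2 (-0.61) and Rtp4 (-1.07) kept their sign. Ifit1 and Ifit2 had 2 KO UMIs each in these cells and Ifit3 had 7. The intervals of Ifit2 (-4.18 to 0.89) and Ifit3 (-1.59 to 0.90) included 0. The cause of these changes was not tested. Without Bst2 and Ifitm3 the sum ratio was 0.26 in macrophage/monocyte cells, -0.38 in CAFs and 0.44 in melanoma cells. The CAF median was -0.49 over members with at least 50 UMIs. In melanoma cells the median and sum were 0.20 and 0.23 with up to 15% mitochondrial UMIs, 0.54 and 0.37 without Scrublet doublets, and the sum was 0.20 with a stricter gate. No paired analysis was possible because there is 1 library of each genotype and a single shared number. T/NK and KO endothelial cells are too few to read most members.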
